A study of Arabidopsis thaliana with 24 samples.

Results

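The comparison described here is that of oas-a1.1 shoots with wild-type (WT) shoots of Arabidopsis thaliana after 24 h of cadmium. It rests on 6 of the 24 arrays of the study, chosen by their labels alone: 3 biological replicates of cadmium-treated oas-a1.1 shoots and 3 of cadmium-treated WT shoots. All 22746 probe sets that are not array controls were tested. The other shoot arrays, 3 of untreated oas-a1.1 shoots and 3 of untreated WT shoots, entered the same model, and 12 root arrays, taken after 18 h of cadmium or untreated, were fitted separately.

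oas-a1.1 is a single T-DNA insertion line in OASA1, so the comparison concerns 1 mutant line, and WT is the accession Col-0. Every plant, treated or not, spent 2 weeks on plates and then 2 weeks in hydroponic culture before harvest, and roots and shoots were collected separately. The cadmium chloride dose is 50 µM in the series design but 50 mM in the protocols of the samples, so the dose is uncertain. The time of day at harvest is not given in the labels used here. Values are log2 RMA values of ATH1 arrays. They compare a probe set between arrays, not one gene with another, and the 3 arrays in each group limit the precision. A probe set is said to be called, and its gene to be higher or lower, where its limma p-value, adjusted over all probe sets, was under 0.05.

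OASA1 is the main cytosolic O-acetylserine(thiol)lyase, which joins sulfide to O-acetylserine to make cysteine. Cysteine feeds glutathione, and glutathione is both a redox buffer and the precursor of phytochelatins, the peptides that bind cadmium in plant cells. Cadmium is not a redox metal itself, but it occupies thiols and is known to burden the glutathione pool, and it also disturbs iron and zinc handling.

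Few genotype differences were called. Under cadmium 35 probe sets were called, 0.154% of those tested, of which 16 were higher in oas-a1.1 (0.0703%) and 19 lower (0.0835%). A difference of 2-fold or more was seen for 12 of the higher and 10 of the lower. Each of the 35 had 3 mutant arrays that did not overlap the 3 WT arrays, as did 13.1% of all probe sets. At an unadjusted p under 0.05 there were 2048. The median difference over all probe sets was -0.0033 log2 units. A single gene is listed for 12 of the 35, and 23 have no gene listed. These 12 genes are described below by group. Shoots were read whole, so a change in the number of cells of a type and a change in RNA per cell cannot be told apart.

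**Figure D1:**
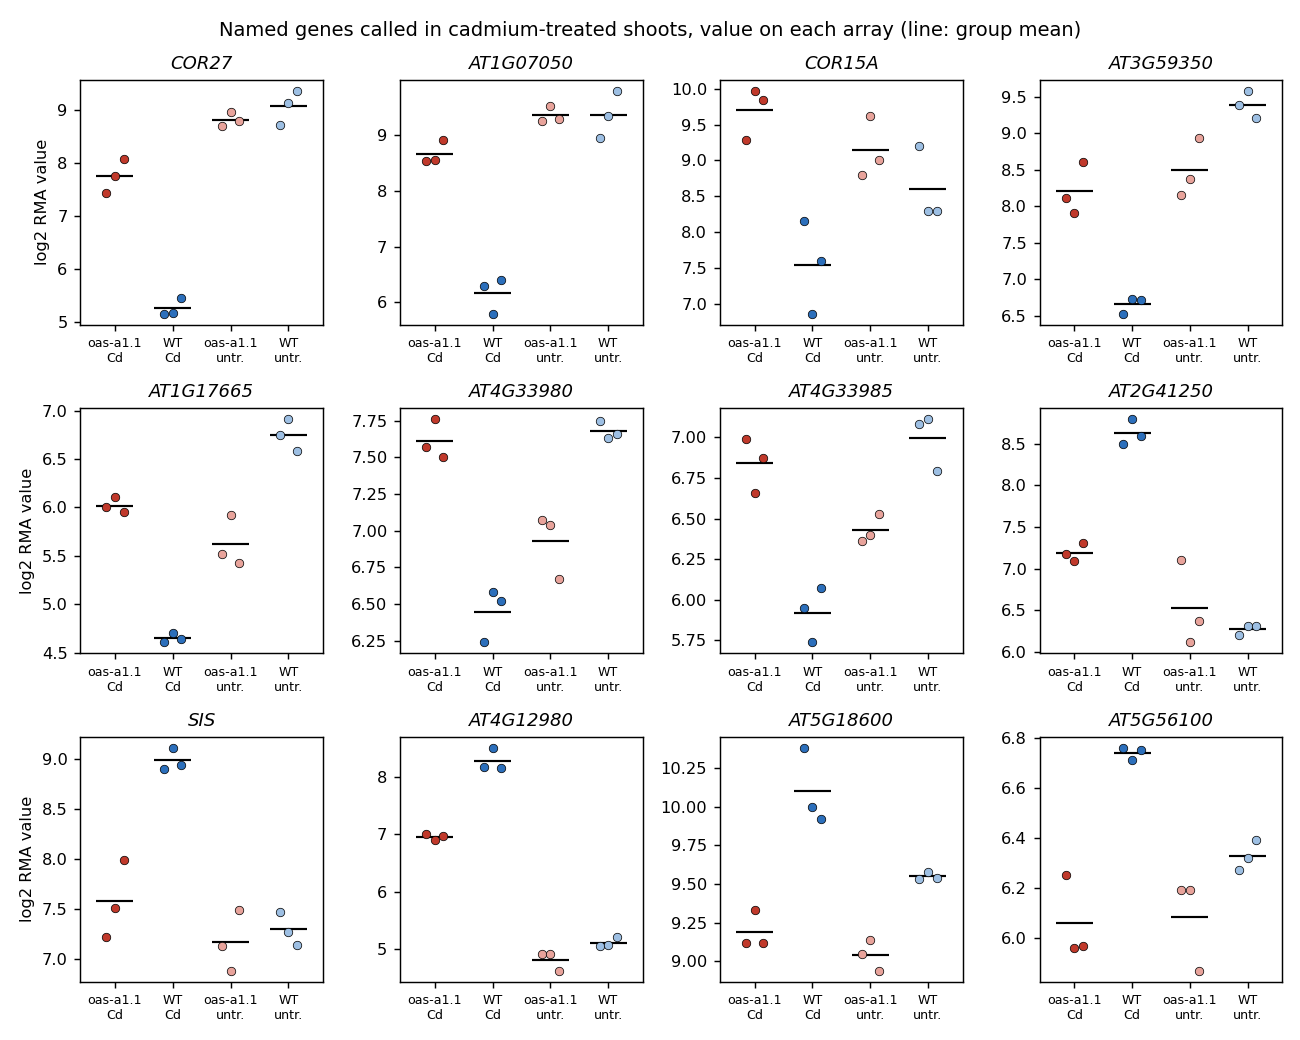
Log2 RMA value of the 12 named genes on each of the 12 shoot arrays, with 1 panel per gene and a line at each group mean. The first 7 panels show the genes that were higher in cadmium-treated oas-a1.1 (dark red) than in cadmium-treated WT (dark blue), and the last 5 those that were lower; the pale points are the untreated shoots.

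The genes higher in oas-a1.1 under cadmium included several that are known to respond to cold and light. COR27 (AT5G42900), a cold- and light-regulated gene whose product represses evening genes of the circadian clock, read 7.44, 7.75 and 8.07 in cadmium-treated oas-a1.1 shoots, against 5.16, 5.18 and 5.46 in cadmium-treated WT shoots. The lowest mutant array was nearly 2 log2 units above the highest WT array. The difference was 2.49 ± 0.18 (SE) log2 units, or 5.6-fold (adjusted p = 0.000225, limma). Without cadmium it read 8.7, 8.96 and 8.8 in oas-a1.1 and 8.72, 9.14 and 9.36 in WT, where the groups overlapped (difference -0.25, adjusted p = 0.629). Cadmium against untreated shoots was called for 2.18% of all probe sets in oas-a1.1 and for 5.58% in WT. For COR27 it gave -1.07 in oas-a1.1 (adjusted p = 0.0134) and -3.81 in WT (adjusted p = 1.97e-06). COR27 thus fell under cadmium in both genotypes, and the interaction of genotype and cadmium, which tests the difference between these changes, was 2.74 ± 0.26 (adjusted p = 0.00193).

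AT4G33980, a relative of COR27, followed the same order of groups under cadmium. It read 7.57, 7.76 and 7.5 in cadmium-treated oas-a1.1 shoots, against 6.24, 6.58 and 6.52 in cadmium-treated WT shoots, with a gap between the groups. The difference was 1.16 ± 0.13, or 2.24-fold (adjusted p = 0.00408). Without cadmium the order was the opposite, and the gene was called lower in the mutant: 7.07, 7.04 and 6.67 in oas-a1.1 and 7.75, 7.63 and 7.66 in WT (difference -0.75, adjusted p = 0.019). Cadmium against untreated shoots gave 0.68 in oas-a1.1 (adjusted p = 0.0204) and -1.23 in WT (adjusted p = 0.000466), so the gene rose in the mutant and fell in WT. The interaction was 1.92 ± 0.18 (adjusted p = 0.00193).

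AT4G33985, a gene of the DUF1685 family of unknown function, lies close to AT4G33980 on chromosome 4, with 1 gene between them in the RefSeq gene order. The other pairs of named genes on a shared chromosome were at least 185 genes apart. AT4G33985 read 6.99, 6.66 and 6.87 in cadmium-treated oas-a1.1 shoots, against 5.95, 5.74 and 6.07 in cadmium-treated WT shoots. The groups did not overlap, and the difference was 0.92 ± 0.12 (adjusted p = 0.0182). In untreated shoots it read 6.36, 6.4 and 6.53 in oas-a1.1 and 7.08, 7.11 and 6.79 in WT, again the opposite order and also without overlap (difference -0.56, adjusted p = 0.0515). Its interaction was 1.48 ± 0.17 (adjusted p = 0.00782). The cadmium change was 0.41 in oas-a1.1 and -1.07 in WT (adjusted p = 0.000801 in WT). Its genotype call was lost without oas-a1.1 replicate 1 or 3 or WT replicate 1 or 2 of the cadmium arrays, with adjusted p up to 0.0928 and a difference of 0.83 to 1.01 with an array left out, and with the 6 cadmium arrays alone (adjusted p = 0.0661).

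COR15A (AT2G42540), which encodes a small chloroplast protein that protects membranes during freezing, read 9.29, 9.97 and 9.84 in cadmium-treated oas-a1.1 shoots. In cadmium-treated WT shoots it read 8.16, 6.86 and 7.6. The WT arrays spread widely, but all 3 lay below the mutant arrays. The difference was 2.16 ± 0.35, or 4.47-fold, and its adjusted p of 0.0495 was close to the threshold. Leaving out any of the 6 cadmium arrays except WT replicate 1 ended the call (adjusted p 0.0796 to 0.221), with differences of 1.82 to 2.47. It was also lost with the 6 cadmium arrays alone (adjusted p = 0.0773) and after a further quantile normalization (adjusted p = 0.0585). In untreated shoots COR15A read 8.8, 9.62 and 9.01 in oas-a1.1 and 9.2, 8.3 and 8.29 in WT, which overlapped (difference 0.55, adjusted p = 0.564). The interaction, 1.61, was not called (adjusted p = 0.199).

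Of the list of 25 genes of abscisic acid, cold and dehydration, 6 had a named probe set. COR27, AT4G33980 and COR15A were called higher in oas-a1.1 under cadmium, 3 of 6, against 0.0703% of all probe sets, and the other 3 were not called. The median difference of the 6 was 1.23 log2 units under cadmium and -0.12 in untreated shoots, beside -0.0033 and 0 over all probe sets. Lists and members were chosen with earlier results of these data known, so neither the share nor the median is a test of the list. COR15B, the neighbouring gene and close copy of COR15A, read 10.26, 10.96 and 10.55 in cadmium-treated oas-a1.1 and 9.86, 8.63 and 9.38 in cadmium-treated WT. That is 1.3 higher in the mutant without passing the test (adjusted p = 0.237); how far the probe sets of the 2 copies share signal was not tested. LTI30, a dehydrin gene, read 7.44, 8.34 and 7.91 in the mutant and 7.39, 7.01 and 6.59 in WT (difference 0.9, adjusted p = 0.424). COR47, another dehydrin gene, overlapped between the groups (difference 0.17, adjusted p = 0.91).

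COR27 and AT4G33980 also stand on the list of circadian clock and light genes, of whose 24 entries 3 had a named probe set. The third was GIGANTEA (GI), an evening gene of the clock, at 9.08, 9.21 and 9.2 in cadmium-treated oas-a1.1 and 8.63, 8.95 and 8.77 in cadmium-treated WT. Its groups were apart by a small margin, and the difference of 0.38 was not called (adjusted p = 0.405). The other entries of that list had no named probe set here, so the rest of the clock was not read.

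AT1G07050 encodes a protein of the CCT motif family, the family of the flowering regulator CONSTANS. It had a difference as large as that of COR27. It read 8.53, 8.55 and 8.91 in cadmium-treated oas-a1.1 shoots, against 6.3, 5.8 and 6.41 in cadmium-treated WT shoots. The gap between the groups exceeded the spread within either, and the difference was 2.49 ± 0.22, or 5.63-fold (adjusted p = 0.000547). Untreated shoots showed no such gap, with 9.25, 9.52 and 9.29 in oas-a1.1 and 8.94, 9.34 and 9.79 in WT (adjusted p = 0.999). Cadmium against untreated shoots gave -0.69 in oas-a1.1 (adjusted p = 0.149), which was not called, and -3.19 in WT (adjusted p = 3.52e-05). The interaction was 2.5 ± 0.3 (adjusted p = 0.00788).

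AT3G59350, which encodes a kinase related to tomato Pti1, read 8.12, 7.91 and 8.61 in cadmium-treated oas-a1.1 shoots, against 6.53, 6.73 and 6.72 in cadmium-treated WT shoots. The difference was 1.55 ± 0.21 (2.93-fold, adjusted p = 0.0187), and the groups were more than 1 log2 unit apart. In untreated shoots the mutant was the lower, at 8.16, 8.37 and 8.94, against 9.38, 9.58 and 9.21 in WT (difference -0.9, adjusted p = 0.0643). The cadmium change was -0.28 in oas-a1.1 and -2.73 in WT (adjusted p = 8.31e-05 in WT), and the interaction was 2.45 ± 0.3 (adjusted p = 0.00788). The genotype call was kept without oas-a1.1 replicate 2 and lost without any of the other 5 cadmium arrays (adjusted p 0.0545 to 0.0928), with differences of 1.35 to 1.7.

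AT1G17665 read 6.0, 6.11 and 5.95 in cadmium-treated oas-a1.1 shoots, against 4.61, 4.7 and 4.64 in cadmium-treated WT shoots. The arrays of a group lay close together, and the difference was 1.37 ± 0.13, or 2.58-fold (adjusted p = 0.000974). Without cadmium the mutant was called lower, with 5.52, 5.92 and 5.43 in oas-a1.1 and 6.75, 6.91 and 6.58 in WT (difference -1.12, adjusted p = 0.00332). AT1G17665 and AT4G33980 were thus called in both shoot comparisons with opposite signs. The change under cadmium was 0.4 in oas-a1.1 (adjusted p = 0.162) and -2.1 in WT (adjusted p = 1.84e-05), and the interaction was 2.49 ± 0.18 (adjusted p = 0.000574).

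**Figure D2:**
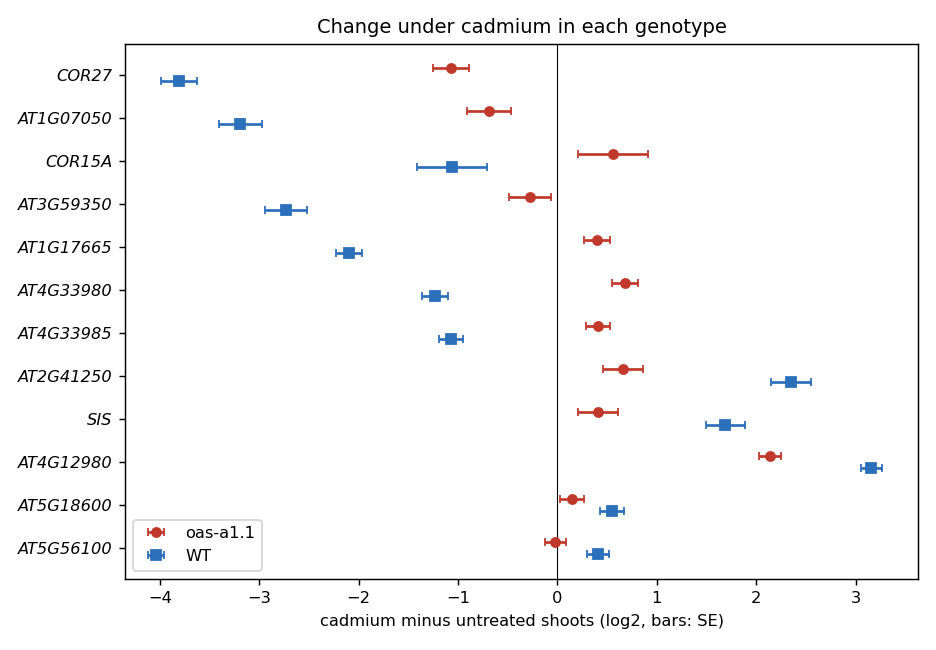
Cadmium minus untreated shoots for the 12 named genes, in log2 units, in oas-a1.1 (red circles) and in WT (blue squares), with bars of 1 SE from limma. COR27 sits at -1.07 in oas-a1.1 and at -3.81 in WT; AT4G12980 sits at 2.14 in oas-a1.1 and at 3.16 in WT. The changes use the same cadmium arrays as the genotype comparison in which the genes were called.

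Among the 5 named genes lower in oas-a1.1 under cadmium, AT4G12980 had the smallest p. It is annotated as auxin-responsive and encodes a membrane protein of the cytochrome b561 and DOMON type, a class that carries electrons across membranes. It read 7.0, 6.9 and 6.97 in cadmium-treated oas-a1.1 shoots, against 8.16, 8.5 and 8.15 in cadmium-treated WT shoots. The groups lay more than 1 log2 unit apart, with a difference of -1.31 ± 0.11, so that WT read 2.49-fold higher (adjusted p = 0.000547). Untreated shoots read 4.91, 4.91 and 4.63 in oas-a1.1 and 5.05, 5.07 and 5.22 in WT. Those groups were also apart, but by little (difference -0.3, adjusted p = 0.246). The gene rose under cadmium in both genotypes, by 2.14 in oas-a1.1 (adjusted p = 1.11e-05) and by 3.16 in WT (adjusted p = 1.65e-07), and the interaction was -1.02 (adjusted p = 0.0229). The interaction call was lost without cadmium-treated oas-a1.1 replicate 1 or 2, untreated oas-a1.1 replicate 2 or untreated WT replicate 1 or 2 (adjusted p 0.0602 to 0.079) and with all 24 arrays in 1 model (adjusted p = 0.0656), while the genotype call under cadmium was kept without any single array.

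AT2G41250 encodes a protein of the haloacid dehalogenase-like hydrolase family. It read 7.18, 7.09 and 7.31 in cadmium-treated oas-a1.1 shoots, against 8.5, 8.79 and 8.59 in cadmium-treated WT shoots, with no overlap. The difference was -1.43 ± 0.2 (adjusted p = 0.0197). In untreated shoots it read 7.1, 6.12 and 6.37 in oas-a1.1 and 6.21, 6.31 and 6.31 in WT, and the groups overlapped (difference 0.25). The cadmium change was 0.66 in oas-a1.1 (adjusted p = 0.133) and 2.35 in WT (adjusted p = 0.000134), and the interaction was -1.69 (adjusted p = 0.0293). Both calls depend on single arrays. The genotype call was lost without any one of the 6 cadmium arrays (adjusted p 0.0543 to 0.129), although the difference then stayed between -1.5 and -1.35. The interaction call was lost without cadmium-treated oas-a1.1 replicate 1 or 2, cadmium-treated WT replicate 2 or 3 or untreated WT replicate 1 or 2 (adjusted p 0.062 to 0.0946).

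SIS (AT5G02020), named for a serine-rich product induced by salt, read 7.22, 7.51 and 7.99 in cadmium-treated oas-a1.1 shoots, against 8.9, 9.11 and 8.94 in cadmium-treated WT shoots. The mutant arrays spread more, but the highest stayed below the lowest WT array, and the difference was -1.41 ± 0.2 (adjusted p = 0.0197). Untreated shoots overlapped, at 7.13, 6.88 and 7.49 in oas-a1.1 and 7.47, 7.27 and 7.14 in WT. The cadmium change was 0.41 in oas-a1.1 and 1.69 in WT (adjusted p = 0.000844 in WT). The interaction of -1.28 was not called (adjusted p = 0.0774), but it was without cadmium-treated oas-a1.1 replicate 3 (-1.49, adjusted p = 0.0352). The genotype call was kept without oas-a1.1 replicate 3 and lost without any of the other 5 cadmium arrays (adjusted p 0.0552 to 0.129), with differences of -1.62 to -1.23, and it was lost with the 6 cadmium arrays alone (adjusted p = 0.0618).

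AT5G18600 encodes a CC-type glutaredoxin, one of a plant-specific class that interacts with TGA transcription factors. It read 9.12, 9.33 and 9.12 in cadmium-treated oas-a1.1 shoots, against 10.38, 10.0 and 9.92 in cadmium-treated WT shoots. The difference was -0.91 ± 0.12 (1.88-fold, adjusted p = 0.0152), and the groups did not overlap. In untreated shoots the mutant was also the lower, with 9.05, 9.14 and 8.94 in oas-a1.1 and 9.53, 9.58 and 9.54 in WT, though not past the threshold (difference -0.51, adjusted p = 0.0637). The interaction was -0.4 (adjusted p = 0.357). The call under cadmium was lost without oas-a1.1 replicate 1 or 3 or WT replicate 2 of the cadmium arrays (adjusted p 0.0504 to 0.0794; difference -1.0 to -0.77 with an array left out), with all 24 arrays in 1 model (adjusted p = 0.0674) and with the 6 cadmium arrays alone (adjusted p = 0.0809), within a range of 0.0035 to 0.639 over its alternatives. Leaving any 1 replicate number out of all groups also ended it.

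The CC-type family as a whole, gathered after the values were seen, did not move 1 way. Of its 21 entries 17 had a named probe set, with 11 reading higher and 6 lower in oas-a1.1 and a median of 0.05. AT5G18600 was the only one called, 1 of 17, beside 0.154% of all probe sets. An unadjusted p under 0.05 was seen for 7 of the 17, beside 2048 of all 22746 probe sets. The groups did not overlap for 7, beside 13.1% of all probe sets. Because the family was gathered with its values known, these shares are no test of it. AT3G62950 read 5.1, 5.18 and 5.47 in cadmium-treated oas-a1.1 and 6.54, 6.82 and 6.78 in cadmium-treated WT, a difference of -1.46 ± 0.29 that was larger but not called (adjusted p = 0.107). GRX480, a glutaredoxin of salicylic acid signalling, leaned the other way, with 7.46, 7.29 and 7.8 in oas-a1.1 and 6.15, 5.83 and 6.4 in WT. Its groups were apart, and its difference of 1.39 had an adjusted p of 0.422, beside a WT array of 5.98 and others of 8.52 and 8.35 in untreated shoots.

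AT5G56100, annotated as a glycine-rich, oleosin-related protein, had the smallest of the 12 named differences. It read 6.25, 5.96 and 5.97 in cadmium-treated oas-a1.1 shoots, against 6.76, 6.71 and 6.75 in cadmium-treated WT shoots. The difference was -0.68 ± 0.11 (1.6-fold, adjusted p = 0.0374), and the WT replicates lay close together. Untreated shoots read 6.19, 6.19 and 5.87 in oas-a1.1 and 6.27, 6.32 and 6.39 in WT (difference -0.24). Its call was kept without oas-a1.1 replicate 1 and lost without any of the other 5 cadmium arrays (adjusted p 0.101 to 0.191), with differences of -0.78 to -0.63. The model of all 24 arrays also ended it (adjusted p = 0.527, within a range of 0.0303 to 0.897 over its alternatives). It was also lost with the 6 cadmium arrays alone, a trended prior, replicate as a block or the level of the 25S ribosomal RNA control as a term (adjusted p 0.0573 to 0.0809), and without any 1 replicate number in all groups.

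The sulfur genes that could be read by name did not differ past the threshold: of 5, 0 were called by limma and 0 had an unadjusted p under 0.05. With 0.154% of all probe sets called, 0 of 5 is no result about sulfur genes in particular. OASA1 itself is not named in the annotation, and the lists of cysteine synthesis and breakdown and of glutathione and phytochelatin synthesis had no named member. The pathway the mutation acts on was thus not read by name, and whether an unnamed probe set reads OASA1 was not determined. Of 20 genes of sulfate uptake and assimilation 3 had a named probe set. APS3, an ATP sulfurylase that activates sulfate, read 9.09, 8.28 and 8.75 in cadmium-treated oas-a1.1 and 8.66, 8.23 and 9.31 in cadmium-treated WT (difference -0.03). Its groups overlapped. APS4, another ATP sulfurylase, read 9.37, 9.47 and 9.33 in oas-a1.1 and 9.21, 9.17 and 9.22 in WT (difference 0.19, adjusted p = 0.698). SIR, the sulfite reductase, read 9.37, 9.25 and 9.52 in oas-a1.1 and 9.3, 9.25 and 9.2 in WT (difference 0.13, adjusted p = 0.828).

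Of 10 genes known to respond to sulfur limitation, 2 were named. AT1G04770, a relative of the SDI1 gene induced by sulfur deficiency, read 6.68, 6.88 and 6.39 in cadmium-treated oas-a1.1 and 7.16, 7.25 and 6.91 in cadmium-treated WT. The mutant arrays were the lower ones, but the difference of -0.46 was not called (adjusted p = 0.633). BGLU28, a beta-glucosidase linked to glucosinolate turnover, stayed between 4.04 and 4.14 in oas-a1.1 and between 4.1 and 4.13 in WT (difference -0.03).

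Among 5 named metal genes 0 were called, against a background of 0.154%, and 0 had an unadjusted p under 0.05. The metallothionein gene MT1C read 9.48, 9.62 and 9.16 in cadmium-treated oas-a1.1 and 9.6, 9.05 and 9.42 in cadmium-treated WT (difference 0.06), and the zinc transporter gene ZIP9 differed by 0.04. Among iron deficiency genes, AT1G47400, a small peptide gene, read 8.16, 9.03 and 6.49 in oas-a1.1 and 6.38, 9.22 and 7.44 in WT. Those values varied more between replicates than between genotypes (difference 0.21 ± 0.68). BHLH101, a regulator of iron uptake, read 6.04, 5.89 and 5.71 in oas-a1.1 and 5.12, 7.59 and 6.79 in WT (difference -0.62, adjusted p = 0.797), and PYE, another iron regulator, differed by 0.04.

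Of the antioxidant lists 0 genes were called by limma, beside 0.154% of all probe sets. An unadjusted p under 0.05 was seen for 4: GRXC2, GRX480, GSTU20 and ATGSTF13. Of 5 named superoxide, peroxide and ascorbate enzymes, glutathione reductase GR1 read 8.3, 8.45 and 7.9 in cadmium-treated oas-a1.1 and 8.45, 8.37 and 8.25 in cadmium-treated WT (difference -0.14, adjusted p = 0.871). The groups overlapped. The chloroplast ascorbate peroxidases TAPX and SAPX differed by 0.19 and 0.23, the monodehydroascorbate reductase ATMDAR2 by 0.05 and the plastid glutathione reductase GR by 0.01. On the list of thioredoxins, glutaredoxins and peroxiredoxins, 6 of 20 entries were named, and all 6 had a difference above 0, with a median of 0.22. This list does not hold the called glutaredoxin AT5G18600, and of the 17 named CC-type glutaredoxins 6 read lower. The largest differences on the list were those of GRX480 and GRXC2, a cytosolic glutaredoxin. GRXC2 read 11.19, 11.38 and 11.17 in oas-a1.1 and 10.96, 10.86 and 10.97 in WT (difference 0.32, adjusted p = 0.272), and the peroxiredoxin AT3G52960 differed by 0.28. Glutathione S-transferases couple glutathione to foreign compounds. Gathered by symbol after the values were seen, 14 were named, with 12 below 0, 2 above 0 and a median of -0.03. Of the 9 named on the list, 8 had a difference below 0 and the median was -0.09. The remaining one, GSTU20, read 10.14, 9.74 and 9.96 in oas-a1.1 and 9.24, 9.08 and 9.51 in WT. It was higher in all 3 mutant arrays by a difference of 0.67 that was not called (adjusted p = 0.474), while ATGSTF13 and GSTU27 differed by -0.17 and -0.42.

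**Figure D3:**
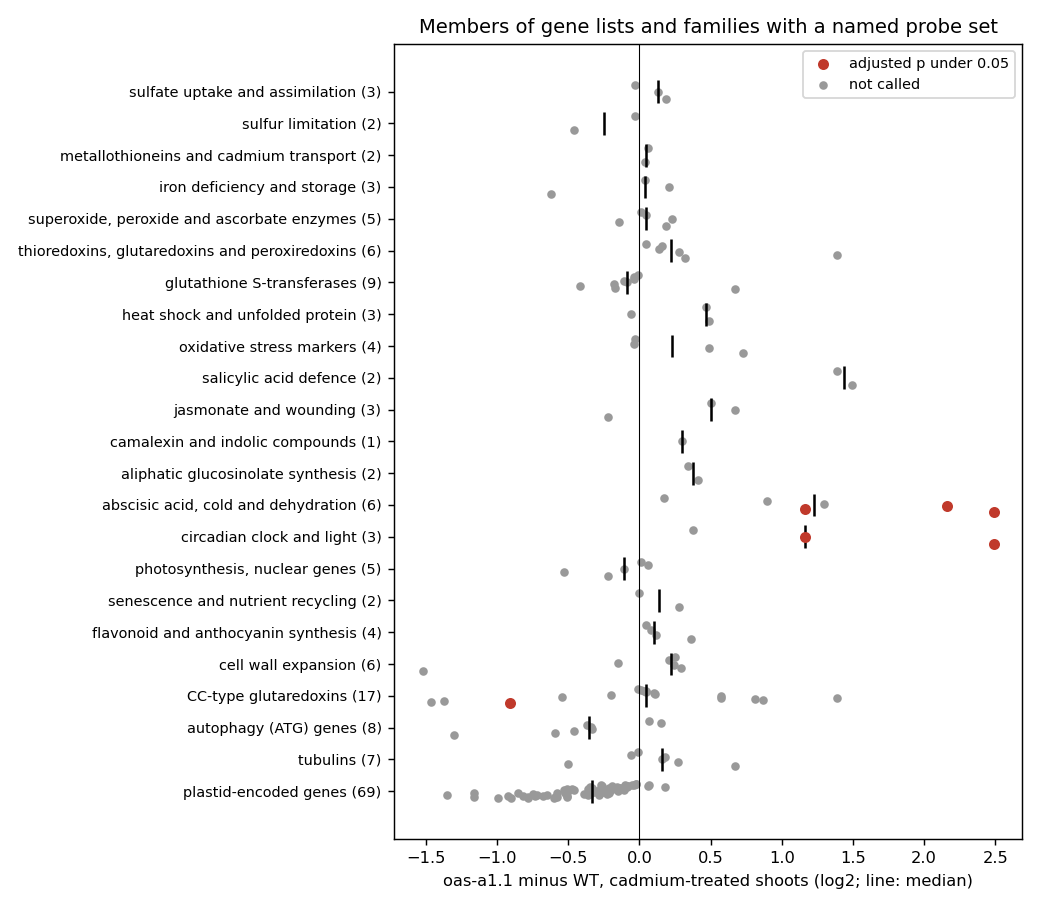
Difference of cadmium-treated oas-a1.1 minus cadmium-treated WT shoots, in log2 units, for each named member of the gene lists and of 4 families, with a line at each median and the number of members in brackets. Called members (red) are COR27, AT4G33980 and COR15A, of which the first 2 stand on 2 lists, and the glutaredoxin AT5G18600; the plastid-encoded genes spread to the left of 0.

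The lists of salicylic acid, jasmonate, oxidative stress, heat shock and cell wall genes had 0 called members by limma, beside 0.154% of all probe sets. On these lists WRKY53, GRX480 and EXPA8 had an unadjusted p under 0.05. WRKY53, a transcription factor of senescence and defence, read 8.93, 8.3 and 8.97 in cadmium-treated oas-a1.1 and 7.01, 7.43 and 7.3 in cadmium-treated WT. The groups did not overlap and the difference was 1.49 ± 0.46, with an adjusted p of 0.286; untreated oas-a1.1 arrays ranged from 6.93 to 8.94. It is 1 of 2 named salicylic acid genes with GRX480. Of the jasmonate genes, the defensin gene PDF1.2 read 12.82, 12.05 and 12.46 in oas-a1.1 and 11.72, 11.01 and 12.6 in WT (difference 0.67, adjusted p = 0.721). PDF1.2b, whose probe set can bind related transcripts, differed by 0.5, and the thionin gene THI2.1 by -0.22. The zinc-finger gene STZ and the dehydrogenase gene NDB2, both markers of oxidative stress, differed by 0.73 and 0.49, and AT2G04050 by -0.04. Heat shock genes AT2G20560, AT5G48570 and ATHSP22.0 differed by 0.49, 0.47 and -0.06.

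Secondary metabolism was read only in part. Of the camalexin and indolic list 1 of 12 entries was named, of the aliphatic glucosinolate list 2 of 17 and of the flavonoid and anthocyanin list 4 of 19. Of these 0 were called, beside 0.154% of all probe sets. UGT74B1 of glucosinolate synthesis, the 1 named gene of the camalexin and indolic list, differed by 0.3, and AT2G31790 and BCAT4 of aliphatic glucosinolate synthesis by 0.41 and 0.34. The flavonoid glycosyltransferases UGT78D1 and UGT78D2 and the anthocyanin enzyme DFR differed by 0.36, 0.12 and 0.08. Of the senescence genes, SAG101 differed by 0.28 and WRKY6 by 0.00. In the cell wall list EXPA8, an expansin that loosens walls, read 7.93, 7.31 and 9.07 in cadmium-treated oas-a1.1 and 9.67, 9.73 and 9.47 in cadmium-treated WT. The mutant arrays were lower and more scattered (difference -1.52 ± 0.55, adjusted p = 0.398); XTH18 and EXPA4 differed by 0.29 and 0.24.

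Nuclear photosynthesis genes, 5 of them named, had a median of -0.11, with LHCB4.3 of the light-harvesting antenna at -0.53 and the Calvin cycle kinase PRK at -0.11. RCA, the Rubisco activase and the single named marker of leaf mesophyll, read 12.49 to 12.69 in cadmium-treated oas-a1.1 and 12.71 to 12.88 in cadmium-treated WT. It differed by -0.22 (adjusted p = 0.561), and on root arrays it read 6.03 to 7.77, so the shoot arrays carried the shoot marker at a high level. The 3 named root markers PYK10, EXPA7 and EXPA18 had a summed log2 value of 13.44 to 14.36 in cadmium-treated oas-a1.1 shoots and 13.83 to 13.99 in cadmium-treated WT shoots, against 24.52 to 27.55 on root arrays. Markers of flowers, seeds and pollen had no named probe set.

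Genes encoded in the plastid genome, a family added after the values were seen, leaned lower in oas-a1.1 under cadmium without a single call. Of 69 named probe sets 66 had a difference below 0 and the median was -0.33, beside -0.0033 over all probe sets. An unadjusted p under 0.05 was seen for 12, beside 2048 of all 22746 probe sets. The mutant and WT arrays did not overlap for 11, beside 13.1% of all probe sets, and 0 were called, beside 0.154%. The median over the 69 was 9.42, 8.85 and 9.45 on the cadmium-treated oas-a1.1 arrays, against 9.98, 9.59 and 9.84 on the cadmium-treated WT arrays. All mutant medians lay below all WT medians. In untreated shoots they were 9.69, 10.11 and 9.93 in oas-a1.1 and 8.9, 9.79 and 9.53 in WT, and the median difference was 0.29. Among the single genes, rpl14 of the plastid ribosome read 6.87, 6.52 and 6.81 in cadmium-treated oas-a1.1 and 7.2, 7.44 and 7.35 in cadmium-treated WT (difference -0.6 ± 0.12, adjusted p = 0.105).

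One array control, for 25S ribosomal RNA, varied widely within groups. It read 5.38, 4.62 and 9.03 in cadmium-treated oas-a1.1 and 5.16, 7.72 and 10.09 in cadmium-treated WT. Replicate 3 was the highest in both. In untreated shoots it read 8.13, 9.44 and 10.36 in oas-a1.1 and 4.95, 5.68 and 11.07 in WT, where the mutant was the higher on replicates 1 and 2. A fit with this 25S level as a term called 41 probe sets under cadmium, 29 of them among the 35, and left the plastid median at -0.33; the part of the 25S variation in the plastid difference was not otherwise tested. The call of COR15A was lost with that term (adjusted p = 0.0689, within a range of 0.00327 to 0.824 over its alternatives), as was that of AT5G56100 (adjusted p = 0.0573). For the interaction of genotype and cadmium, described further on, the same term left 75 calls in place of 101. It ended those of AT4G12980 and AT3G62950 (adjusted p = 0.0545 each), AT2G41250 (adjusted p = 0.0659) and AT4G33666 (adjusted p = 0.0747).

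**Figure D4:**
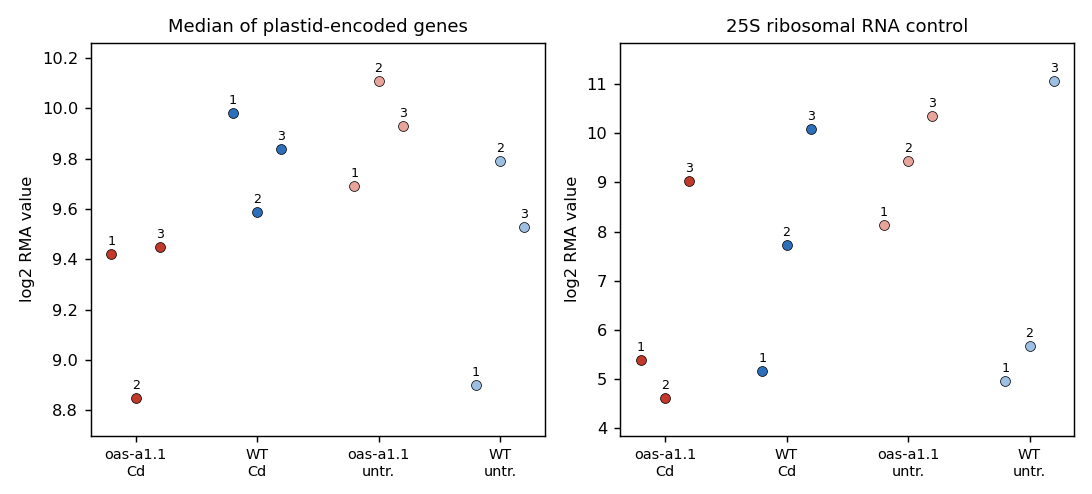
Left, median log2 RMA value of the 69 plastid-encoded probe sets on each shoot array; right, log2 RMA value of the 25S ribosomal RNA control, with replicate numbers above the points. The 3 cadmium-treated oas-a1.1 medians (8.85 to 9.45) lie below the 3 cadmium-treated WT medians (9.59 to 9.98), while the 25S values of those 2 groups overlap.

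The genotype differences under cadmium were set beside those in untreated shoots, which share no array with them. Without cadmium 331 probe sets were called, 1.46%, with 146 higher and 185 lower in oas-a1.1, several times the number under cadmium. Of the 35 called under cadmium, 22 had the same sign in untreated shoots, beside 48.8% of all probe sets. By direction these were 8 of the 16 higher and 14 of the 19 lower. Their median absolute difference was 1.14 under cadmium and 0.3 without, against 0.1 and 0.11 over all probe sets. In untreated shoots 5 of the 35 were called, 3 with the same sign and 2, AT4G33980 and AT1G17665, with the opposite one.

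Seen from the other side, the 331 probe sets called in untreated shoots had a median absolute difference of 0.87 there and 0.17 under cadmium. Of these, 179 (54.1%) had the same sign under cadmium, beside 48.8% of all probe sets. An unadjusted p under 0.05 there was seen for 85, beside 2048 of all 22746 probe sets. Under cadmium 5 of the 331 were called, beside 0.154% of all probe sets. The numbers of calls under cadmium and in untreated shoots both depend on single arrays. Under cadmium the count was 14, 15 or 18 when oas-a1.1 replicate 1, 2 or 3 was left out, and 23, 13 or 31 when WT replicate 1, 2 or 3 was. The untreated count was 563, 58 or 118 when oas-a1.1 replicate 1, 2 or 3 was left out, and 45, 53 or 838 when WT replicate 1, 2 or 3 was. Each of these 6 untreated counts exceeded each of the 6 cadmium counts, but with replicate 2 left out of all groups the counts were 3 under cadmium and 1 without it.

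**Figure D5:**
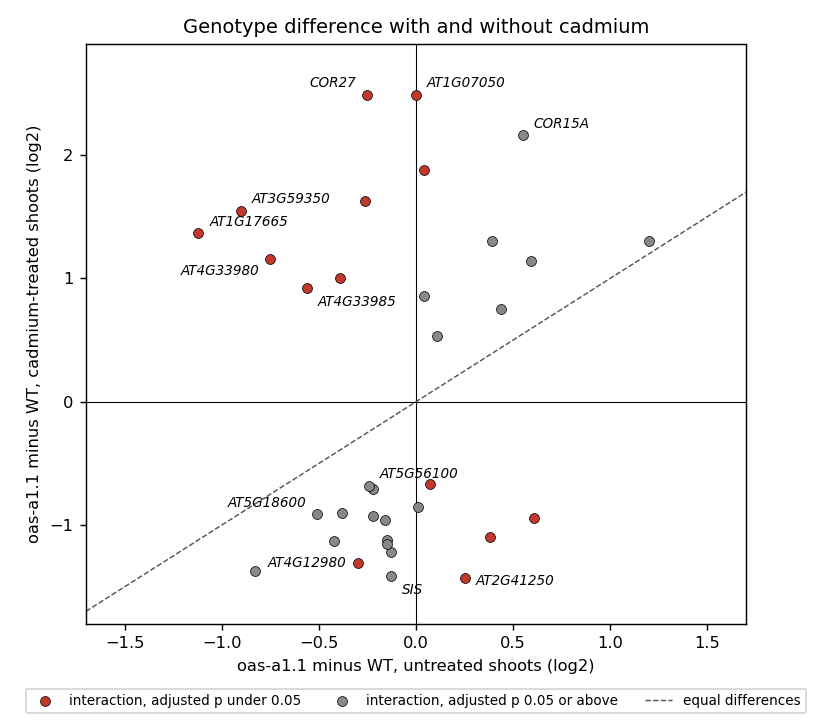
Difference of oas-a1.1 minus WT, in log2 units, in cadmium-treated shoots (vertical) and in untreated shoots (horizontal) for 34 of the 35 probe sets called under cadmium; 245286_at, at -6.49 and -7.35, is off the scale. Red points had a called interaction; AT1G17665 and AT4G33980 lie above 0 under cadmium and below 0 without it.

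The interaction test asks directly whether the genotype difference under cadmium was unlike that in untreated shoots. It was called for 101 probe sets, 0.444%, with 47 positive and 54 negative, and it uses the same cadmium arrays as the genotype comparison. The largest called positive interactions of named genes were those of COR27, AT1G07050, AT1G17665 and AT3G59350 given above, then AT1G78410, which encodes a VQ-motif protein, a class that binds WRKY factors, and AT4G33980. AT1G78410 read 6.91, 6.28 and 6.45 in cadmium-treated oas-a1.1 and 5.86, 5.56 and 5.7 in cadmium-treated WT (difference 0.84, adjusted p = 0.238). In untreated shoots it read 5.51, 5.5 and 5.37 in oas-a1.1 and 6.91, 7.49 and 6.42 in WT, a called difference of -1.48 (adjusted p = 0.015). The order of the genotypes was reversed between the treatments, and the interaction was 2.32 ± 0.33 (adjusted p = 0.0171). This call was lost without cadmium-treated oas-a1.1 replicate 1, cadmium-treated WT replicate 2 or untreated WT replicate 1 (adjusted p 0.0502 to 0.062).

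The 6 largest called negative interactions of named genes belonged to genes that were not called between the genotypes under cadmium. AT3G62950, the CC-type glutaredoxin above, read 6.77, 6.99 and 5.87 in untreated oas-a1.1 and 5.25, 4.98 and 5.98 in untreated WT, where the groups overlapped. Its interaction was -2.6 ± 0.41 (adjusted p = 0.0233). AT5G19120, of the aspartyl protease family, read 8.54, 7.78 and 8.55 in cadmium-treated oas-a1.1 and 9.32, 9.65 and 9.2 in cadmium-treated WT (difference -1.1, adjusted p = 0.054). Without cadmium the mutant was called higher, at 8.82, 9.0 and 8.85, against 7.67, 7.8 and 7.59 in WT (difference 1.2, adjusted p = 0.015). With an interaction of -2.3 ± 0.27 (adjusted p = 0.00782), its call was kept without any single array.

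AT5G02230, of the haloacid dehalogenase-like hydrolase family, differed little between the genotypes under cadmium, at 7.44, 7.15 and 7.48 in oas-a1.1 and 7.52, 7.93 and 7.73 in WT (difference -0.37). Untreated shoots read 7.47, 7.57 and 8.04 in oas-a1.1 and 6.04, 5.52 and 6.2 in WT, a called difference of 1.77 (adjusted p = 0.00298). The WT arrays were the ones that stood apart there, and the interaction of -2.14 ± 0.28 (adjusted p = 0.012) was kept without any single array. AT4G33666, AT3G26510 and AT4G14930 had interactions of -2.08, -1.95 and -1.79 (adjusted p 0.0309, 0.0203 and 0.0171), with differences of -0.87, -0.6 and -0.71 under cadmium and of 1.21, 1.35 and 1.09 in untreated shoots. The last 3 differences were called (adjusted p 0.0409, 0.0149 and 0.0179). Several of these interaction calls rest on single arrays: that of AT4G33666 was kept only without cadmium-treated or untreated WT replicate 3 (otherwise adjusted p 0.0534 to 0.0952). Those of AT3G62950 and AT3G26510 were lost without cadmium-treated oas-a1.1 replicate 1, untreated oas-a1.1 replicate 2, cadmium-treated WT replicate 2 or untreated WT replicate 1 or 2, and that of AT3G62950 also without cadmium-treated oas-a1.1 replicate 2 or cadmium-treated WT replicate 3 (adjusted p up to 0.079). With all 24 arrays in 1 model the interaction of AT3G26510 was not called (adjusted p = 0.23). The call of AT4G14930 was lost without cadmium-treated oas-a1.1 replicate 1, cadmium-treated WT replicate 2 or untreated WT replicate 1 or 2 (adjusted p up to 0.062).

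Roots under cadmium, on arrays that share none with the shoots, gave 395 calls between oas-a1.1 and WT, 1.74%, or 672 with replicate number as a block. Of the 35 probe sets called in shoots, 25 had the same sign in roots, beside 51.1% of all probe sets, and 2, both without a listed gene, were called there with the same sign. In roots 0 of the 12 named genes were called by limma, 2 had an unadjusted p under 0.05 (AT4G33985 and AT3G59350), and the differences ran from -0.47 (AT5G56100) to 0.6 (AT3G59350). COR27 read 4.23, 4.04 and 3.83 in cadmium-treated oas-a1.1 roots and 4.5, 4.24 and 4.34 in cadmium-treated WT roots (difference -0.33, adjusted p = 0.649). AT1G07050 stayed between 3.97 and 4.15 in oas-a1.1 roots and between 3.84 and 4.07 in WT roots. Both lay near the lowest value on any array, 3.27, so a difference between the genotypes in roots could be hidden there. Roots were taken after 18 h and shoots after 24 h, and organ and hours cannot be told apart.

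The 23 called probe sets with no gene listed comprised 9 higher in oas-a1.1, by 0.53 to 1.88 log2 units, and 14 lower. The lowest of them, 245286_at, read 4.33, 4.15 and 4.51 in cadmium-treated oas-a1.1 shoots, against 10.99, 10.6 and 10.86 in cadmium-treated WT shoots. Its difference was -6.49 ± 0.25 (adjusted p = 7.96e-07), and in untreated shoots it was -7.35 (adjusted p = 2.05e-07). In cadmium-treated roots it was -6.27 (adjusted p = 2.96e-08, limma), so this difference was not particular to cadmium-treated shoots. With no gene listed, whether this probe set reads OASA1, the mutated gene, was not determined. The mutant arrays sat near the lowest values of the data set, so the difference may understate the true one. The remaining 13 lower ones differed by -0.67 to -1.37, the largest being that of 256266_at, at 7.01, 7.06 and 6.93 in oas-a1.1 and 7.99, 8.73 and 8.39 in WT (adjusted p = 0.0152). That call was lost without any one of the 3 cadmium-treated oas-a1.1 arrays (adjusted p 0.0595 to 0.076; difference -1.4 to -1.34) and with the 6 cadmium arrays alone (adjusted p = 0.0562).

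Of the higher ones, 267364_at had the smallest spread, with 8.24, 8.26 and 8.22 in cadmium-treated oas-a1.1 and 6.4, 6.28 and 6.39 in cadmium-treated WT. Its difference was 1.88 ± 0.12 (adjusted p = 9.95e-05), while in untreated shoots it was 0.04. 248744_at read 8.15, 8.64 and 8.3 in oas-a1.1 and 6.81, 6.71 and 6.69 in WT (difference 1.63 ± 0.14, adjusted p = 0.000517) and -0.26 in untreated shoots. Both had a called interaction, of 1.84 and 1.89 (adjusted p 0.00193 and 0.00277). With any 1 of the 6 cadmium arrays left out, the genotype calls of 245286_at, 267364_at, 248744_at, COR27, AT1G07050, AT4G12980, AT1G17665 and AT4G33980 were kept. Most of these calls were lost when a replicate number was left out of all groups. That of COR27 was lost without replicate 2 (adjusted p = 0.162, limma). Those of AT1G07050, AT4G12980 and AT4G33980 were lost without replicate 1 or 2. AT1G17665 lost its call without replicate 1, and 248744_at without replicate 2 or 3. Only 245286_at and 267364_at kept theirs without any 1 replicate number.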

How the data were processed

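RNA of roots and shoots was read on 24 ATH1 arrays, 3 in each of 8 groups, with groups and replicate numbers taken from the labels. The deposited values are log2 values made by the authors with RMA in the affy package, per the submitters' processing notes; their versions are not given in the sources used. RMA normalizes arrays to one another, which can hide a shift shared by most genes and draws low values together. The values carry 2 decimals, and the 64 array controls were not tested. Microarray values hold no counts, so precision is limited by the 3 arrays of a group. A single gene is listed for 13513 probe sets, several for 503 and none for 8730, in the platform annotation; 13436 of the 13513 matched the RefSeq gene table of assembly TAIR10.1 and 77 did not. Genes were named only from probe sets with a single gene, so 71 of 448 genes on the lists could be read.

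Group means were fitted to the 12 shoot arrays (4 groups), and separately to the 12 root arrays, with limma 3.58.1 in R 4.3.3. The tests were two-sided, adjusted by Benjamini and Hochberg over 22746 probe sets, with calls at an adjusted p under 0.05. SE is that of limma. The fit was tested on simulated data of this design. The text names every called probe set with a single gene, the 2 unnamed ones with the largest called difference in each direction, the 6 named genes with the largest called interaction in each direction, the named members of the sulfur and metal lists, and otherwise the called members of a list or up to 3 with the smallest p. Members, lists and tests were chosen with earlier results of these data known, and families such as the CC-type glutaredoxins after the values were seen. Root arrays of cadmium-treated plants with the same replicate number had residuals correlated at 0.64, 0.11 and 0.22. For replicates 2 and 3 the highest correlation with another number was larger, at 0.22 and 0.32. The numbers thus do not establish pairs in roots, and the blocked root count is printed only as an alternative. Alternatives are listed in the closing section.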

Additional observations from a re-analysis of the deposited data

Results flagged for a closer look

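In each result here the genotype difference under cadmium was unlike that in untreated shoots, by the limma interaction test (cadmium difference minus untreated difference, log2 units, 3 arrays per group, adjusted p from 0.000574 to 0.0309). The positive ones were COR27 at 2.74, AT1G07050 at 2.5, AT1G17665 at 2.49, AT3G59350 at 2.45, AT1G78410 at 2.32, AT4G33980 at 1.92 and AT4G33985 at 1.48, with the unnamed probe sets 248744_at at 1.89 and 267364_at at 1.84. The negative ones were AT3G62950 at -2.6, AT5G19120 at -2.3, AT5G02230 at -2.14, AT4G33666 at -2.08, AT3G26510 at -1.95, AT4G14930 at -1.79, AT2G41250 at -1.69 and AT4G12980 at -1.02. For AT1G17665 and AT4G33980 the genotype difference was called in both treatments with opposite signs, 1.37 and 1.16 under cadmium and -1.12 and -0.75 in untreated shoots. Calls of AT4G12980, AT2G41250, AT1G78410, AT3G62950, AT4G33666, AT3G26510 and AT4G14930 depend on single arrays, and the remaining ones were kept without any single array. With the 25S level as a term the calls of AT4G12980, AT2G41250, AT3G62950 and AT4G33666 were lost (adjusted p 0.0545 to 0.0747), and with all 24 arrays in 1 model those of AT4G12980 (adjusted p = 0.0656) and AT3G26510 (adjusted p = 0.23). Leaving replicate 1 out of all groups ended every one of these interaction calls.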

How the results depend on the processing

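None of the 16 differences under cadmium or 23 interactions of named genes and unnamed probe sets was reversed in any alternative (0 reversed), but in 97 of 304 refits of the differences, and 96 of 552 of the interactions, a value no longer passed; 5 passed that had not. The 35 calls became 88 (37 higher, 51 lower) with all 24 arrays in 1 model, 55 (38 lower) with a trended and robust prior and 228 (105 and 123) with array weights. Lower calls were 33 for the upper 60% of probe sets by mean, 29 with each array centred on its median and 10 with the 6 compared arrays alone (25 calls in all, 15 of them among the 35). That fit ended the calls of AT4G33985, SIS, AT5G18600, COR15A, AT5G56100 and 256266_at (adjusted p 0.0562 to 0.0809). With replicate as a block 38 were called, 29 of them among the 35. Residuals of same-numbered cadmium-treated shoot arrays correlated at 0.07, 0.3 and 0.49. Each mutant array correlated best with its own number, against at most 0, 0.26 and -0.27 with another. In untreated shoots the same-number correlations were -0.21, 0.14 and -0.25. The numbers may thus pair the cadmium-treated arrays, and the main test did not use such a pairing. The block ended the calls of COR15A (adjusted p = 0.0817) and AT5G56100 (adjusted p = 0.0573). Leaving out an array, or a replicate number in all groups, gave 3 to 31 calls (2 to 12 higher, 1 to 20 lower). Untreated calls were 515 with all 24 arrays, 64 with 6 alone, 1850 with weights, 665 with the block and 1 to 999 with arrays left out. Interaction calls were 160 and 162 with the upper 60% and centring, 278 with all 24 arrays, 1177 with weights, 227 with the block and 0 to 607 with arrays left out. Root calls were 689, 152, 727 and 672 for all 24 arrays, 6 alone, weights and block, and 2 to 250 with arrays left out. Arrays with 25S at or above 7, a boundary chosen after seeing the data, left 1 cadmium-treated mutant shoot array and 1 untreated WT shoot array. They gave 1 call under cadmium (0 higher, 1 lower), 1 untreated, 0 interactions and 142 in roots, which says nothing about stability in shoots. The cause of these shifts was not tested. The smallest difference called was 0.53 log2 units under cadmium, 0.38 in untreated shoots, 0.66 for the interaction and 0.4 in roots, and signals near the lowest value, 3.27, cannot show a fall.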

Other observations

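Autophagy genes, gathered after the values were seen, leaned lower in oas-a1.1 under cadmium. ATG8E, one of the ubiquitin-like proteins that coat autophagosomes, read 7.58, 7.03 and 7.68 in cadmium-treated oas-a1.1 shoots, against 8.58, 8.93 and 8.67 in cadmium-treated WT shoots. The groups did not overlap, yet the difference of -1.3 ± 0.23 missed the threshold (adjusted p = 0.0569), and in untreated shoots it was 0.17. Of 8 named ATG genes 6 had a difference below 0, with ATG8B at -0.59 and ATG8C at -0.46, and 2 lay above 0. The median was -0.36. By limma 0 were called, beside 0.154% of all probe sets. An unadjusted p under 0.05 was seen for 5, beside 2048 of all 22746 probe sets. Because these genes were gathered with their values known, the shares are no test of the family. TUB9, a beta-tubulin gene, read 9.11, 9.14 and 8.81 in cadmium-treated oas-a1.1 and 8.48, 8.22 and 8.36 in cadmium-treated WT (difference 0.67, adjusted p = 0.0519), while the 7 named tubulins had a median of 0.16 and TUA1 was at -0.5.

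Families gathered by symbol after the values were seen held 0 called members by limma, beside 0.154% of all probe sets. They were 47 UDP-glycosyltransferases (median -0.02), 23 cytochromes P450 (median 0), 14 expansins (median 0.03) and 6 WRKY factors (median 0.09). Of these 1, 0, 3 and 1 had an unadjusted p under 0.05, beside 2048 of all 22746 probe sets. The unnamed probe set 257985_at, singled out after its values were seen, had nearly the same genotype difference in both treatments. It read 6.44, 6.39 and 6.33 in cadmium-treated oas-a1.1 and 5.03, 5.08 and 5.14 in cadmium-treated WT (difference 1.3, adjusted p = 0.000225). In untreated shoots it read 9.57, 9.41 and 9.27 in oas-a1.1 and 8.07, 8.21 and 8.36 in WT (difference 1.2, adjusted p = 0.000999), and its interaction was 0.1.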
